A study of Aspergillus nidulans with 4 samples.

Results

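The terrequinone cluster genes *tdiA* to *tdiE* of *Aspergillus nidulans* were looked up by the identifiers AN8513 to AN8517, and 3 of these 5 identifiers have a row among the 10930 genes of the expression table: AN8513 (*tdiA*), AN8514 (*tdiB*) and AN8516 (*tdiD*). The identifiers AN8515 (*tdiC*) and AN8517 (*tdiE*) were not analysed here, but the neighbouring AN8518 and AN8520, described here by their place and function text, may be the genes known as *tdiC* and *tdiE*. All 3 genes had higher means in the strain lacking *pkaA*, the gene of a catalytic subunit of protein kinase A (PKA), than in its parent. *tdiA* was 10.7-fold and *tdiB* 16.2-fold higher in the strain means. *tdiD* was 6.22-fold higher, on 12 and 2 reads.

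The Δ*pkaA* strain (labelled AN1358) and its isogenic parent (labelled AN1405, called WT) were grown in liquid YGV, a rich medium (0.5% yeast extract, 2% glucose), shaken at 250 rpm and 28°C, and mycelium was harvested after about 20 h of main culture. No treatment differed between the strains, and the labels name no allele besides the *pkaA* deletion. There were 2 samples per strain, described as biological replicates, and each was sequenced as a pair of technical replicates. Each strain is 1 line, so any other difference between the lines cannot be told apart from the deletion, and the p-values measure only the spread between these cultures.

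Terrequinone A is a bisindolylquinone, a secondary metabolite built from tryptophan. In the known pathway TdiD, an aminotransferase, turns tryptophan into indole pyruvate, and TdiA, a nonribosomal peptide synthetase with a single module, joins a pair of these molecules into a quinone. TdiB, a prenyltransferase, and TdiC, a reductase, act in the later steps that attach dimethylallyl groups, for which TdiE is also needed. The cluster is known as one of the gene clusters whose expression depends on LaeA, a nuclear regulator of secondary metabolism, and PKA is a glucose-responsive kinase known to act on secondary metabolism and development in *Aspergillus*.

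For each strain and gene the table gives a mean normalized count, the number of reads divided by a size factor of each library and averaged over the libraries. Low means fall on steps from which the whole reads of both libraries of a strain were recovered, called library a and library b here, since they could not be matched to the numbered samples. Over all genes the means added up to 29312151 for Δ*pkaA* mycelium and 31012501 for WT mycelium, and the size factors found were 1.020 and 0.982 in Δ*pkaA* mycelium and 1.045 and 0.960 in WT mycelium. The deleted gene itself, AN6305 (*pkaA*), had a mean of 73.9 in Δ*pkaA* mycelium (79 and 69 reads) and 1869 in WT mycelium. Which exons the deletion removes was not examined.

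*tdiA* (AN8513), the synthetase gene, was covered by few reads in WT mycelium. It had 24 and 29 reads in the Δ*pkaA* libraries, against 3 and 2 reads in the WT libraries. In normalized counts these were 23.5 and 29.5 in Δ*pkaA* mycelium and 2.87 and 2.08 in WT mycelium, with means of 26.5 ± 4.24 and 2.48 ± 0.558 (SD, n = 2 each). Both Δ*pkaA* libraries were above both WT libraries. In bulk mycelium, more cells that express a gene and more RNA per cell cannot be told apart. The ratio of the means was 10.7, with an exact 95% interval of 4.27 to 34.0 that covers counting error only.

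*tdiB* (AN8514), the prenyltransferase gene, had 87 and 61 reads in the Δ*pkaA* libraries, against 3 and 6 reads in the WT libraries. Its mean was 73.7 ± 16.4 in Δ*pkaA* mycelium and 4.56 ± 2.39 in WT mycelium (SD, n = 2 each), a ratio of 16.2 (8.43 to 36.7 by counting). The 2 strains did not overlap for *tdiB* either, and the gap between them was wide beside the spread within each strain.

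*tdiD* (AN8516), the aminotransferase gene, had the lowest mean of the 3 in both strains. It had 8 and 4 reads in the Δ*pkaA* libraries, against 2 and 0 reads in the WT libraries, and means of 5.96 ± 2.67 and 0.957 ± 1.35 (SD, n = 2 each). The libraries did not overlap, but the lower Δ*pkaA* library had only 4 reads and the higher WT library 2. The ratio of 6.22 has a counting interval of 1.34 to 55.2.

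Among the 4455 genes with reads recovered in all 4 libraries and more than 3 reads in at least 1 strain, both Δ*pkaA* libraries lay above both WT libraries for 36.9%, so separation of the libraries alone is common in these data. The difference between the strains was tested with limma, fitted across all genes on log2(normalized count + 1) with Benjamini-Hochberg adjustment. The fit took 3732 genes with an average of at least 10, and a gene was called where it differed by at least 2-fold with an adjusted p below 0.05. *tdiA* rose, with a log2 fold change of 2.99 ± 0.38 (SE, adjusted p = 7.82e-04). *tdiB* rose too, with a log2 fold change of 3.80 ± 0.43 (SE, adjusted p = 4.53e-04). Of all genes tested, 20.5% were called higher and 23.3% lower in Δ*pkaA* mycelium, against 2 of the 2 *tdi* genes tested called higher. Both genes reached an average of 10 only through their Δ*pkaA* counts, as their WT means were 2.48 and 4.56. The count is therefore not a fair share to set beside those of all genes. *tdiD* had an average of 3.46 and was not tested. In a limma fit without the limit on the average its log2 fold change was 1.97 with an adjusted p of 0.0518, which was not past the threshold.

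**Figure D1:**
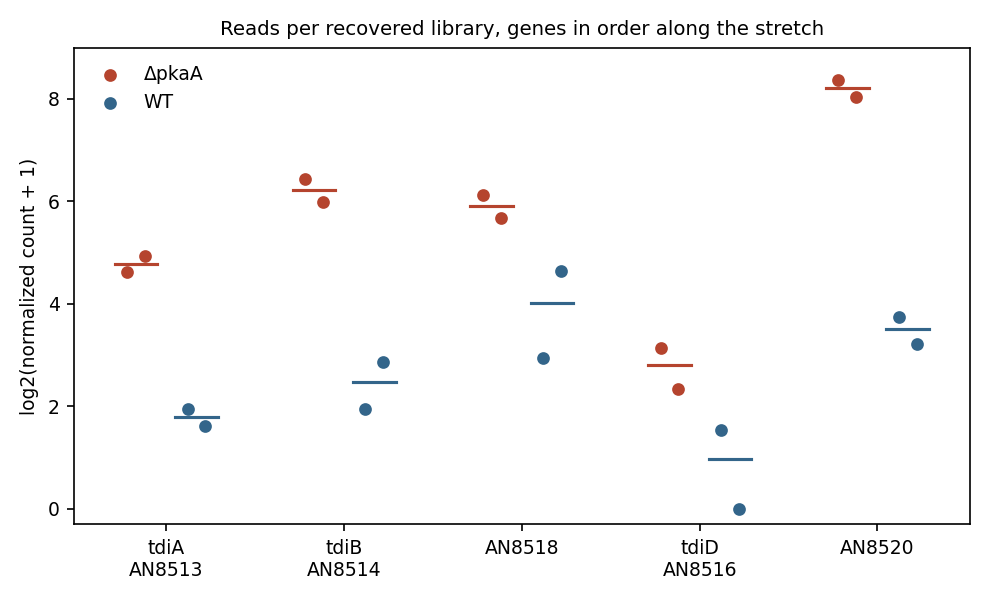
Normalized count of each gene in each recovered library, as log2(normalized count + 1), for the 3 *tdi* genes and for AN8518 and AN8520, which lie between and beside them, in their order along the chromosome. Points are the libraries, left in each pair for the Δ*pkaA* strain and right for the WT, bars are the strain means, and for each of the 5 genes both Δ*pkaA* points are above both WT points, with *tdiD* lowest.

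By the positions in the authors' table, which carry no chromosome name, *tdiA* spans bases 735713 to 738625 on the minus strand, *tdiB* 739015 to 740407 on the plus strand and *tdiD* 742241 to 744060 on the plus strand. RefSeq places all 3 on chromosome V. *tdiA* and *tdiB* point away from each other with 389 bases between them. Another gene, AN8518, lies between *tdiB* and *tdiD*, at 740988 to 742227 on the plus strand, and its function text likens it to NADPH-dependent quinone reductases. AN8520, at 744087 to 745471 on the minus strand, follows *tdiD* and is described as needed to make terrequinone A. These are the functions known for TdiC and TdiE, so both may be those genes under other identifiers, but the table does not name either as a *tdi* gene. Together these 5 genes fill 9759 bases.

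AN8518 and AN8520 were looked at because of their place and text, and not by their identifiers. AN8520 had 336 and 257 reads in the Δ*pkaA* libraries, against 13 and 8 reads in the WT libraries. Its mean was 296 ± 47.9 in Δ*pkaA* mycelium and 10.4 ± 2.91 in WT mycelium (SD, n = 2 each), a ratio of 28.5 (18.3 to 46.0 by counting). AN8520 rose with a log2 fold change of 4.72 ± 0.29 (SE, limma, adjusted p = 5.78e-05), and its libraries did not overlap.

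AN8518 had 70 and 49 reads in the Δ*pkaA* libraries, against 7 and 23 reads in the WT libraries, which is a 3.87-fold higher mean (2.64 to 6.13 by counting). The strains did not overlap, but its WT libraries lay far apart. Its log2 fold change was 2.10 ± 0.57 (SE, limma, adjusted p = 0.0182). In fits that left 1 library in a strain, this call was lost without Δ*pkaA* library a (log2 fold change 1.88, adjusted p = 0.125) and without Δ*pkaA* library b (2.33, adjusted p = 0.0775). Leaving out WT library a gave 1.25 and leaving out WT library b gave 2.95 on the log2 scale, still past the threshold in both limma fits (adjusted p = 0.0133 and 3.26e-04).

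Each library was also left out in turn. A strain then has 1 library, which is assumed to vary like the others: the residual spread comes from the other strain, moderated over all genes, so these fits show how far the values move and are a weak check of the calls. The log2 fold change of *tdiA* was between 2.82 and 3.15 and that of *tdiB* between 3.35 and 4.25, both past the threshold in each of these limma fits. That of AN8520 was between 4.45 and 4.98. With a pseudocount of 10 in place of 1, the log2 fold changes of *tdiA* and *tdiB* were 1.55 and 2.52, since a larger pseudocount shrinks the difference of genes near 0 reads, and both were called there too.

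**Figure D2:**
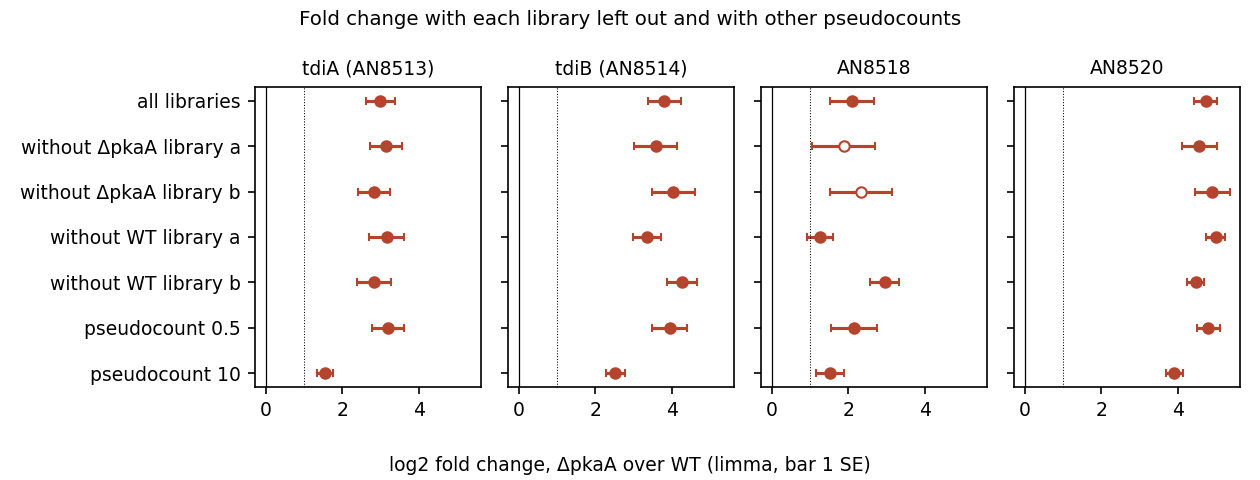
Log2 fold change, Δ*pkaA* over WT, from limma (x axis, bar 1 SE) for *tdiA*, *tdiB*, AN8518 and AN8520, with all libraries, with each library left out and with other pseudocounts (y axis). Filled points passed the call of an adjusted p below 0.05 and at least 2-fold, which is marked by the dotted line, and the 2 open points are AN8518 without either Δ*pkaA* library.

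The 5 genes differed widely in level. Per kilobase of gene, introns included, AN8520 had the highest mean normalized count in Δ*pkaA* mycelium, 213 per kb (238 and 189 in the libraries). *tdiB* followed with 52.9 per kb (61.2 and 44.6) and AN8518 with 47.8 per kb (55.3 and 40.2), and the libraries of these neighbours in the order overlapped. *tdiA* had 9.11 per kb (8.08 and 10.1) and *tdiD* 3.27 per kb (4.31 and 2.24), each apart from the next gene in the order. In the WT, the order of the means per kb was AN8518 with 12.4, AN8520 with 7.50, *tdiB* with 3.27, *tdiA* with 0.850 and *tdiD* with 0.526. There the ranges of AN8518 (5.40 to 19.3) and AN8520 (6.01 to 8.99) overlapped, as did those of *tdiA* (0.715 to 0.986) and *tdiD* (0 to 1.05). By the means *tdiD* was lowest. Its libraries were below those of *tdiA* in Δ*pkaA* mycelium but not in WT mycelium, where *tdiD* had only 2 reads and *tdiA* 5. *tdiD* lies 13 bases from the end of AN8518 and 26 bases from that of AN8520. *tdiD* and AN8520 are read towards each other, the library kit does not keep the strand of the RNA, and the sources used here do not give how the authors' counting treated reads that reach across such ends.

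The ratios of the 3 *tdi* genes were in the upper part of all genes. Among the 10177 other genes with more than 3 reads in at least 1 strain, 2.83% had a higher ratio of Δ*pkaA* over WT than *tdiB*, 3.94% than *tdiA* and 6.04% than *tdiD*. The share was larger among genes whose average was within 2-fold of the gene's own: 5.60% for *tdiB*, 6.74% for *tdiA* and 8.02% for *tdiD*. For AN8520 it was 3.09% and for AN8518 16.6%. Of all genes given a ratio, 17.1% were at least 2-fold higher and 17.7% at least 2-fold lower in Δ*pkaA* mycelium, against 3 of the 3 *tdi* genes at least 2-fold higher. *tdiD* was given a ratio only through its 12 reads in Δ*pkaA* mycelium, against 2 reads in WT mycelium.

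**Figure D3:**
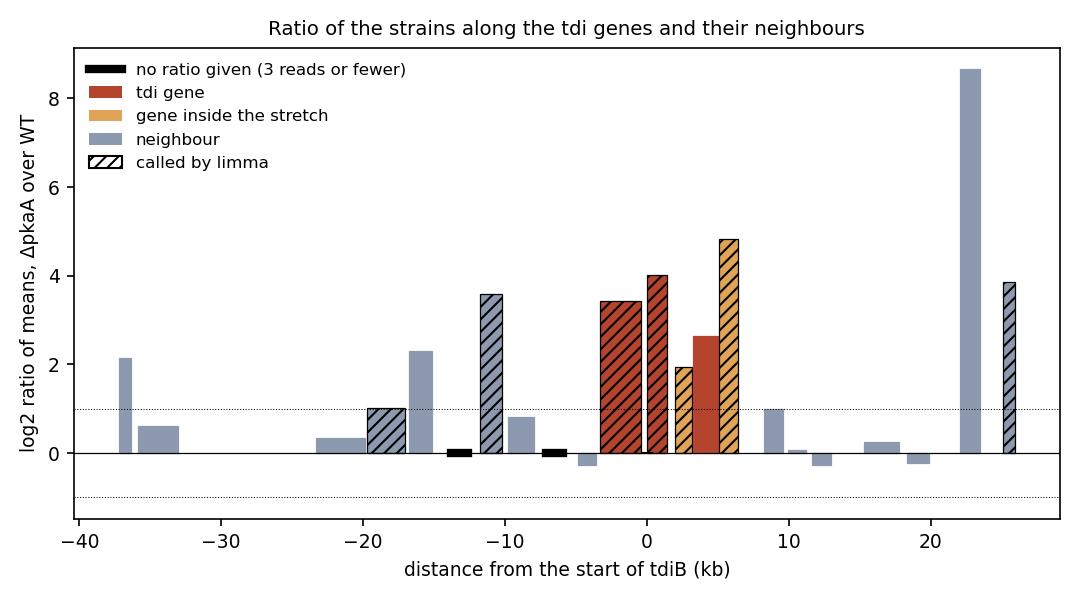
Log2 ratio of the strain means, Δ*pkaA* over WT (y axis), of each gene by its distance in kb from the start of *tdiB* (x axis), for the 3 *tdi* genes, the 2 genes inside their stretch and 17 neighbours. Hatched bars were called by limma and dotted lines mark 2-fold: the 5 genes of the stretch stand between AN8512 at −0.26 and AN8521 at 1.00.

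The genes that border the stretch did not pass the test. AN8512, a gene of unknown function 286 bases from *tdiA*, had 175 and 163 normalized counts in the Δ*pkaA* libraries, against 162 and 244 in the WT libraries, which overlap. Its log2 fold change was −0.23 ± 0.22 (SE, limma, adjusted p = 0.384). AN8511, the next gene on that side, had 1 read in Δ*pkaA* mycelium and 0 in WT mycelium, so no ratio was given. AN8519 was not analysed here.

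On the other side AN8521, described as adjacent to the *tdi* cluster and 1793 bases from AN8520, had 23 and 20 reads in the Δ*pkaA* libraries, against 5 and 16 reads in the WT libraries. The libraries did not overlap, and the mean was 2.00-fold higher, but the log2 fold change of 1.15 ± 0.57 (SE, limma, adjusted p = 0.118) was not past the threshold. Without WT library b it was 1.95 (adjusted p = 0.00565), which was past it, and without WT library a it was 0.34, both with the spread taken from the Δ*pkaA* libraries.

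WT library b was also the higher one over low genes in general. For the 615 genes with a WT mean from 2 to 10, the normalized counts of WT library a summed to 0.821 times those of WT library b, and for 867 genes from 10 to 50 to 0.849 times. For the Δ*pkaA* libraries the same ratios were 1.11 and 1.05. AN8518, AN8521 and *tdiB* were higher in WT library b and *tdiA*, *tdiD* and AN8520 in WT library a. The part of this difference in the results was not tested.

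Farther out, genes at least 2-fold higher in Δ*pkaA* mycelium appeared on both sides. Of the 17 neighbours within 10 identifiers, bordering genes included, 15 were given a ratio. Of these, 7 were at least 2-fold higher, AN8521 among them, and 0 at least 2-fold lower, where all genes gave 17.1% and 17.7%. AN8507, also among the 7, was given a ratio only through its 10 reads in Δ*pkaA* mycelium, against 2 reads in WT mycelium. Limma tested 9 of the neighbours and called 3 higher and 0 lower, where 20.5% and 23.3% of all genes tested were called. AN8523 was not called, with a log2 fold change of −0.27 (limma, adjusted p = 0.0638) and means of 477 in Δ*pkaA* mycelium and 576 in WT mycelium. AN8525 had a like log2 fold change of −0.23 and was not called either.

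The 3 called neighbours were AN8506, AN8509 and AN8527. AN8509 and AN8527 reached an average of 10 only through their Δ*pkaA* counts, as their WT means were 2.00 and 4.52. The count of called neighbours is therefore not a fair share to set beside those of all genes tested. AN8509, a putative transcription factor, had 22 and 26 reads in the Δ*pkaA* libraries, against 2 and 2 in the WT libraries, and rose with a log2 fold change of 3.05 ± 0.38 (SE, limma, adjusted p = 6.83e-04). AN8527 had 70 and 61 reads in the Δ*pkaA* libraries, against 4 and 5 in the WT libraries, and rose with a log2 fold change of 3.60 ± 0.34 (SE, limma, adjusted p = 2.21e-04). AN8506, another putative transcription factor, rose by close to the limit, with means of 390 in Δ*pkaA* mycelium and 194 in WT mycelium and a log2 fold change of 1.01 ± 0.13 (SE, limma, adjusted p = 8.58e-04). It fell short of 2-fold without WT library a (0.92) and with a pseudocount of 10 (0.98). AN8526, whose orthologs act in ergot alkaloid synthesis, had a mean of 810 in Δ*pkaA* mycelium and 2.00 in WT mycelium (4 reads). Its Δ*pkaA* mean was too high for reads per library to be recovered, so AN8526 was not tested, and the same holds for AN8503, with means of 1904 in Δ*pkaA* mycelium and 432 in WT mycelium.

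Regulators of secondary metabolism, LaeA among them, were listed beside the *tdi* genes. Of these 15 regulator genes, 0 were at least 2-fold higher and 1 was at least 2-fold lower in the strain means, with a median log2 ratio of −0.27, against −0.01 over all genes. All genes gave 17.1% at least 2-fold higher and 17.7% at least 2-fold lower. *laeA* (AN0807) had means of 1260 in Δ*pkaA* mycelium and 1683 in WT mycelium. *veA* (AN1052), a light-dependent velvet regulator, had 11879 in Δ*pkaA* mycelium and 15326 in WT mycelium, and *velB* (AN0363), its partner, had 1793 in Δ*pkaA* mycelium and 2372 in WT mycelium. These 3 genes were too high for a test. *vosA* (AN1959), a velvet protein of spore formation, fell, with means of 441 in Δ*pkaA* mycelium and 963 in WT mycelium and a log2 fold change of −1.13 ± 0.12 (SE, limma, adjusted p = 4.00e-04). It was 1 of 3 regulators that could be tested, where 23.3% of all genes tested were called lower.

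Genes around the aromatic precursors were picked by words of their function text, which also take in genes of tryptophan breakdown, several aromatic prenyltransferase genes and a tRNA synthetase gene. Among 29 genes whose text names tryptophan, shikimate or related compounds, 27 were given a ratio: 4 were at least 2-fold higher, 6 at least 2-fold lower, and the median log2 ratio was 0.17, where all genes gave 17.1% and 17.7% and −0.01. Of the tryptophan synthesis genes with a RefSeq symbol, *trpB* (AN6231) had 5754 in Δ*pkaA* mycelium and 13782 in WT mycelium, *trpE* (AN3695) 3772 in Δ*pkaA* mycelium and 7921 in WT mycelium, and *trpC* (AN0648) 3906 in Δ*pkaA* mycelium and 6713 in WT mycelium, all too high for a test. With an average of at least 100, the highest was AN11053, with a predicted arylformamidase domain of tryptophan breakdown (1344 in Δ*pkaA* mycelium and 287 in WT mycelium), and the lowest AN5444, a putative tryptophan synthase (61.6 in Δ*pkaA* mycelium and 2169 in WT mycelium). Limma tested 8 of the 29 genes and called 2 higher, both with arylformamidase domains, and 3 lower. The lower ones were AN1858, a putative tryptophan 2,3-dioxygenase, AN1140, a dehydroshikimate dehydratase, and AN6784, an aromatic prenyltransferase. Their limma log2 fold changes were −2.93, −4.71 and −1.58. Not every synthesis gene was lower. AN3634, a putative anthranilate phosphoribosyltransferase, and AN5731, a putative chorismate synthase, had log2 ratios of 0.22 and 0.20 and were too high for a test. Of 7 isoprenoid precursor and geranylgeranylation genes, 0 were at least 2-fold higher and 2 at least 2-fold lower, beside 17.1% and 17.7% of all genes, and 0 could be tested. The highest of them was AN5760, whose orthologs prenylate CAAX proteins (974 in Δ*pkaA* mycelium and 816 in WT mycelium) and the lowest AN3747, whose orthologs prenylate Rab proteins (1387 in Δ*pkaA* mycelium and 3365 in WT mycelium).

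Other genes picked by words for the enzyme kinds of *tdiA* and *tdiB* had median log2 ratios below that of all genes. Of 21 other genes whose text has the words nonribosomal peptide synthetase or NRPS, 17 were given a ratio, with 2 at least 2-fold higher, 7 at least 2-fold lower and a median log2 ratio of −0.56. Over all genes 17.1% were at least 2-fold higher and 17.7% at least 2-fold lower, with a median of −0.01. Limma called 1 of 10 tested higher, AN8412, and 4 lower, where 20.5% and 23.3% of all genes tested were called. With an average of at least 100, the highest ratio was that of AN7884 (55798 in Δ*pkaA* mycelium and 198 in WT mycelium), likened to ferrichrome synthetases. The lowest was that of AN2545 of the emericellamide cluster (152 in Δ*pkaA* mycelium and 8195 in WT mycelium). AN2621 of the penicillin cluster, which is also such an enzyme but was not found by these words, had a lower ratio still (2.02 in Δ*pkaA* mycelium and 167 in WT mycelium). Of 12 other genes picked by prenyltransferase words, 8 were given a ratio, with 1 at least 2-fold higher, 2 at least 2-fold lower and a median of −0.39. These words also take in genes whose orthologs act in tRNA modification and in dolichol and ubiquinone synthesis. All genes gave 17.1% and 17.7%, and 8 genes are few to set beside these shares. AN3228, a predicted prenyltransferase, had the lowest ratio (1.51 in Δ*pkaA* mycelium, from 3 reads, and 6219 in WT mycelium), and AN12152 the highest with an average of at least 100 (580 in Δ*pkaA* mycelium and 603 in WT mycelium). The genes described as aromatic prenyltransferases of the dimethyl-allyl-tryptophan synthase type went both ways. Those given a ratio had log2 ratios of 1.12 for AN10289 (11 and 5 reads), 0.52 for AN11080 and −1.73 for AN6784.

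A few further clusters were set beside the *tdi* genes as reference points, each described by its own values and with no test between clusters. They were chosen with earlier results known and are not a sample of all clusters. A rise was not particular to the *tdi* genes: the synthetase genes AN7884 and AN8412 had log2 ratios of 8.14 and 1.74. In the penicillin cluster, 3 of 3 genes were at least 2-fold lower in Δ*pkaA* mycelium, with a median log2 ratio of −6.84. AN2622, the isopenicillin N synthase gene, had a mean of 11.4 in Δ*pkaA* mycelium and 3246 in WT mycelium, and AN2623, the acyltransferase gene, 95.7 in Δ*pkaA* mycelium and 10988 in WT mycelium. In the emericellamide cluster, 4 of 4 genes were at least 2-fold lower, with a median of −6.26, and their log2 ratios went from −8.68 for AN2548, a putative acyltransferase gene, to −5.25 for AN2549, a putative acyl-CoA ligase gene. In the orsellinic acid cluster, 3 of 4 genes were at least 2-fold lower, with a median of −2.09, and limma called these 3. Among them were AN7909, the polyketide synthase gene, at −2.70 and AN7912, a putative tyrosinase gene, at −2.21. In the stretch of the *tdi* genes, 5 of 5 were at least 2-fold higher, with a median of 3.42. Over all genes given a ratio, 17.1% were at least 2-fold higher and 17.7% at least 2-fold lower.

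**Figure D4:**
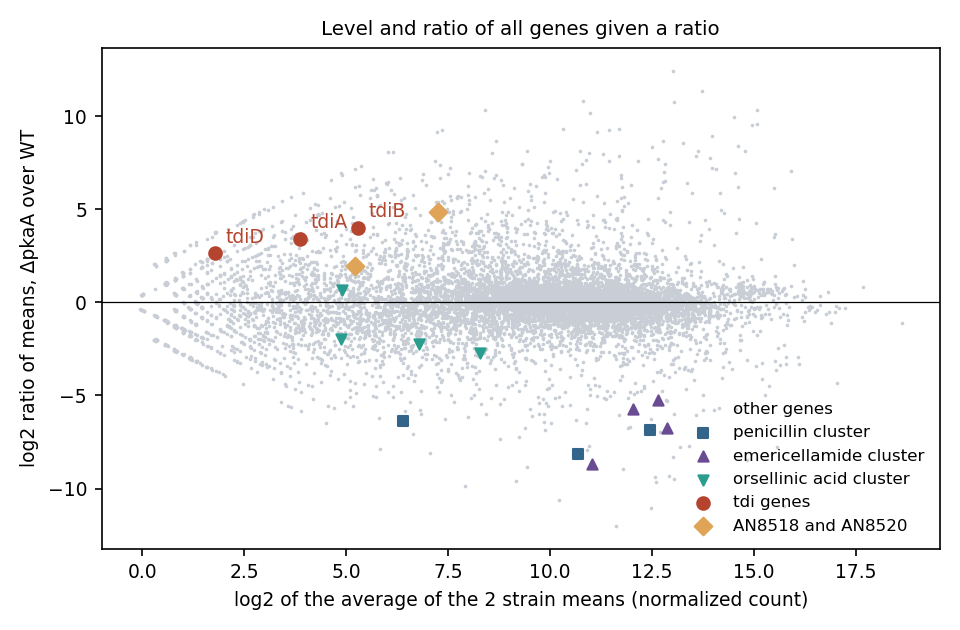
Log2 ratio of the strain means, Δ*pkaA* over WT (y axis), against the log2 of the average of the 2 means (x axis), for 10178 genes with more than 3 reads in at least 1 strain, where a mean of 0 was set to 3 reads. The 3 *tdi* genes, at 2.64 to 4.01, stand on the side higher in Δ*pkaA* mycelium, and the penicillin and emericellamide genes on the other side, from −5.25 to −8.68. The orsellinic acid genes lie on both sides, from −2.70 to 0.67.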

How the data were processed

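RNA from 2 samples per strain was sequenced with a kit that keeps no strand. Per the labels and the methods, the authors aligned reads with Bowtie2, counted them with HTSeq and compared the strains with DESeq, and neither versions nor genome release are given in the sources used here. The values the authors deposited are a signal: for each gene, a normalized count averaged per strain. Their fold changes, p-values and q-values were not used, nor was a second table, which lists none of the *tdi* genes. The strain of each column came from the study's supplementary header.

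The whole reads of each library were read from the steps of the means, to a tolerance of 6e-05, for 4831 of 4833 means below 800 in Δ*pkaA* mycelium and 6542 of 6542 below 1500 in WT mycelium. Limma 3.58.1 (R 4.3.3) with a mean-variance trend was fitted to log2(value + 1). The recovery and the fit were tested on simulated data. No ratio was given where both strains had 3 reads or fewer, and a mean of 0 was set to 3 reads. Intervals are exact binomial and cover counting error only. Other steps used NumPy 2.4.6, SciPy 1.17.1, pandas 2.3.3 and matplotlib 3.10.9 in Python 3.11.15.

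The members, lists and tests were chosen with earlier results of these data known. Genes named were all members, those of the 10 identifiers on each side that bordered the stretch or passed 2-fold at an average of at least 10, the *pkaA* gene, *laeA*, *veA* and *velB*, and from the other lists the highest and lowest ratio with an average of at least 100, and 5 genes by likeness. AN8522, AN8523, *vosA*, AN8412, AN2621, AN7911, AN7914, *trpB*, *trpC* and *trpE* were named after their values were seen. So were AN8507, AN8525, AN1140, AN1858, AN3634, AN5731, AN6784, AN10289 and AN11080. Lists came from identifiers and from words in the function text. Gene symbols and chromosomes came from RefSeq assembly ASM1142v1, none of whose coordinates is given.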

Additional observations from a re-analysis of the deposited data

How the results depend on the processing

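Of 117 values of single genes under other scalings, pseudocounts, filters and left-out libraries, 101 kept their direction and call or stayed within 1 SD. For *tdiA*, *tdiB* and *tdiD* no value turned its direction. The log2 ratio of the means was 1.55, 2.52 and 0.54 for them with a pseudocount of 10. Alternatives for AN8518, AN8520 and the neighbours were chosen after seeing the data. With libraries left out in turn, limma gave −0.53 to 0.06 for AN8512 and −0.84 to 0.61 for AN8522, and neither was called in any of these fits. With an average of at least 100 required, 0 *tdi* genes remained to be tested, and limma called 909 genes in place of 1634. At 4-fold, limma called 781, and the means gave 1668 genes in place of 3541. Rescaling to equal sums added 0.08 to every log2 ratio, and centring on the median of genes averaging at least 100 took off 0.015. Values for AN8515 and AN8517 were not analysed here. No paired analysis was possible because the recovered libraries carry no replicate number. Depth limits *tdiD*, *tdiA* and *tdiB* in WT mycelium, where each had fewer than 10 reads, so the upper ends of their ratios are loose. Genes above the limits of recovery have strain means only.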

Other observations

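Among 3719 genes outside the *tdi* stretch and its neighbours, the 5 whose profile over the 4 recovered libraries was nearest to the mean profile of *tdiA* and *tdiB* were AN3531, AN9323, AN12291, AN0032 and AN2353. The distance was the Euclidean distance of log2(normalized count + 1), centred for each gene, and was 0.09, 0.13, 0.14, 0.14 and 0.15 for them. AN3531, a putative D-sorbitol dehydrogenase, had means of 709 in Δ*pkaA* mycelium and 68.7 in WT mycelium, and AN2353, a putative F-box protein, had 780 in Δ*pkaA* mycelium and 68.9 in WT mycelium. AN0032 was the 1 of the 5 at the level of the *tdi* genes, with means of 54.4 in Δ*pkaA* mycelium and 4.52 in WT mycelium. The likeness rests on 4 libraries and describes these libraries only.

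The WT libraries also lay apart for the 4 genes of the orsellinic acid cluster, in the direction seen for AN8518 and AN8521. AN7909, the polyketide synthase gene, had normalized counts of 103 and 63.1 in the Δ*pkaA* libraries and 232 and 844 in WT libraries a and b. AN7912, a putative tyrosinase gene, had 48.0 and 30.5 in the Δ*pkaA* libraries and 105 and 257 in the WT libraries. AN7911 had 13.7 and 10.2 in the Δ*pkaA* libraries and 33.5 and 60.4 in the WT libraries. The Δ*pkaA* libraries were below both WT libraries for these 3 genes. For the fourth, AN7914, a putative alcohol dehydrogenase gene, they were not, with 40.2 and 32.6 in the Δ*pkaA* libraries and 12.4 and 33.3 in the WT libraries.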
